A study of Mus musculus with 23 samples.

Results

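Hearts taken 7 days after isoproterenol were compared with hearts taken 1 day after it. The comparison holds the 4 libraries labelled ISO day 7 and the 3 labelled ISO day 1, so 7 of the 23 libraries of the series, chosen by those labels alone. Each library is poly-A RNA of the heart of a female wild-type C57BL/6J mouse, an inbred laboratory strain, aged 10 weeks. Both groups received isoproterenol (ISO) at 300 mg/kg, and the 4 untreated hearts of the same arm (ISO baseline) are given as levels beside them. A parallel arm received lipopolysaccharide (LPS) at 2.5 mg/kg, and its day 1 and day 7 groups of 4 libraries each enter where the difference between the arms was tested. Hearts were collected when the mice were killed, so day 1 and day 7 are separate mice, and time since the dose is the labelled difference between them. The spread within a group is that between hearts.

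Isoproterenol is a synthetic catecholamine that activates beta-adrenergic receptors, which raise cyclic AMP and with it the rate and force of the heartbeat. A high dose injures cardiomyocytes and is used in mice as a model of catecholamine injury. Injured heart muscle is known to switch on stress genes such as natriuretic peptides, chaperones and antioxidant enzymes, and to draw in neutrophils and monocytes. Clearance of these cells and a phase of matrix repair by fibroblasts usually follow. RNA of a whole heart mixes cardiomyocytes with fibroblasts, vessel cells and leukocytes, so for every gene below fewer cells of a type and less RNA per cell cannot be told apart.

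Estimated reads assigned to genes totalled 24193737 to 30368985 in the 7 libraries. Levels are CPM, reads scaled to a common library size with TMM factors. Mitochondrially encoded transcripts took 23.8% ± 1.29 (SD, n = 3) of reads at day 1 and 26.6% ± 1.84 (SD, n = 4) at day 7 (exact permutation test, two-sided, p = 0.171, or 0.229 adjusted over 4 library measures, where the smallest possible is 0.0571). The top 10 genes took 25.6% ± 1.68 (SD, n = 3) and 29.1% ± 1.38 (SD, n = 4), without overlap between the groups (the same exact test, p = 0.0571, adjusted p = 0.229). The 21 sarcomere genes summed to 76494 to 96445 CPM at day 1 and 89989.8 to 98530.00 CPM at day 7, and the skeletal muscle genes Myh1, Myh2, Myh4 and Tnnt3 did not pass the count filter. Libraries of a group differed from each other by more than counting noise. Day 7 replicate 3 was the farthest from its group (chi-square per degree of freedom 24.5 to 48.4 against the other 3, which differed among themselves by 6.85 to 18). The main results that rest on it are given with and without it.

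The transcriptome differed broadly between the 2 days. Of 15732 genes tested with edgeR's quasi-likelihood test, 10236 (65.1%) passed an adjusted p of 0.05, of which 5218 (33.2%) were higher and 5018 (31.9%) lower at day 7. These shares are the background for each count of list members below. A change of at least 2-fold was called for 2055 genes (13.1%) upward and 1464 (9.31%) downward, and one of at least 4-fold for 599 upward and 436 downward. The median log2 change over all genes tested was 0.03. For 9233 of the called genes no day 1 library overlapped a day 7 library, and this held for 61.8% of all genes tested. That share is the background wherever a lack of overlap is named below. Without day 7 replicate 3 the test called 10131 genes. Among protein-coding genes that reached 5 CPM in one of the days and whose libraries did not overlap, the 15 lowest log2 changes were those of Fosl1 (-7.67), Saa3 (-7.37), Ereg (-6.96), Nmrk2 (-6.58), Lcn2 (-6.49), Ankrd2 (-6.35), Prg4 (-6.07), Mt2 (-6.00), Pak3 (-5.74), Fhad1 (-5.46), Sec1 (-5.44), Serpina3n (-5.43), Nrip3 (-5.42), Syt12 (-5.37) and Lrp8 (-5.16). The 15 highest were those of Lsmem1 (5.07), Col6a6 (4.96), Ky (4.53), B3galt2 (4.37), Lrrc15 (4.18), Cdh23 (4.11), Armc2 (3.84), Aplnr (3.64), Fndc1 (3.37), Ccl21a (3.34), Pld4 (3.33), Smco1 (3.32), Fcrls (3.31), Lmod3 (3.28) and Colq (3.27). Of these genes, 9 of the lowest reached the level of the count filter, 0.382 CPM, in at least 3 libraries on day 1 alone, and 3 of the highest on day 7 alone. Sec1 lies among related fucosyltransferase genes, and its reads may be shared with them.

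**Figure D1:**
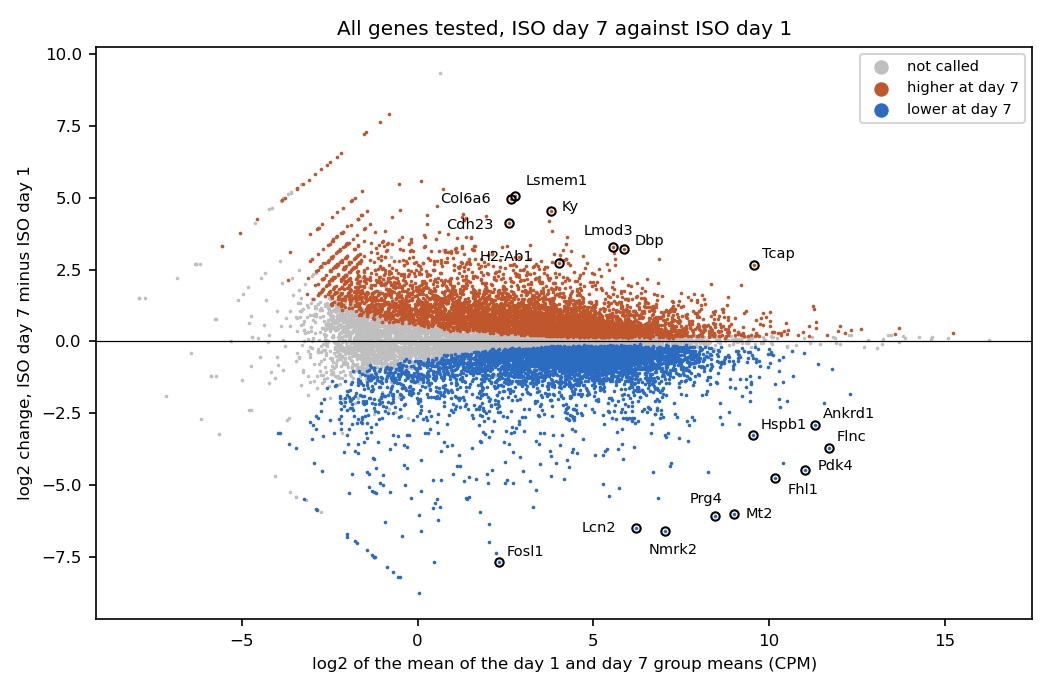
Each point is 1 of the 15732 genes tested, with the log2 of the mean of the day 1 and day 7 group means in CPM on the horizontal axis and the log2 change, ISO day 7 minus ISO day 1, on the vertical axis. Orange points (5218) were called higher and blue points (5018) lower at day 7, grey points were not called, and circles mark named genes from Fosl1 at -7.67 to Lsmem1 at 5.07.

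Stress genes of heart muscle were lower on day 7. Nmrk2 (ENSMUSG00000004939, chromosome 10, 81198170 to 81202051, mm10), which is protein-coding and makes a muscle nicotinamide riboside kinase that feeds NAD synthesis, was at 213, 452 and 123 CPM in the 3 day 1 hearts and at 2.69, 1.49, 3.74 and 3.06 CPM in the 4 day 7 hearts (log2 change -6.58, SE 0.46, adjusted p = 3.54e-11). Every day 7 heart was far below every day 1 heart, and untreated hearts stood at 1.22 to 2.57 CPM. Without day 1 replicate 2, the highest library, the log2 change was -5.93 (adjusted p = 1.44e-10). Fhl1 (ENSMUSG00000023092, chromosome X, 56731787 to 56793346, mm10), the protein-coding gene of a LIM-domain protein of the sarcomere that responds to mechanical stress, went from 1973, 2385 and 2327 CPM to 88.3, 73.6, 81.7 and 89.9 CPM (log2 change -4.74, SE 0.18, adjusted p = 2.13e-15). The 4 day 7 values lay close around the untreated range of 80.4 to 84.7 CPM. Flnc, which codes for the muscle actin crosslinker filamin C, was at 5583, 7123 and 5845 CPM and then at 456, 494, 471 and 492 CPM (log2 change -3.69, SE 0.20, adjusted p = 4.20e-13), again without overlap.

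Ankrd1, a titin-associated ankyrin repeat protein, was at 4171, 5239.7 and 3935 CPM on day 1. On day 7 it was at 303, 552, 947 and 596 CPM (log2 change -2.89, SE 0.28, adjusted p = 7.32e-09), with replicate 1 below the untreated range of 348 to 460.1 CPM and the other 3 above it. Nppb, the gene of B-type natriuretic peptide, a hormone that stretched heart muscle releases, was at 173, 202 and 190.2 CPM and then at 13.1, 67.2, 49.4 and 50.02 CPM (log2 change -2.07, SE 0.35, adjusted p = 1.88e-05). Replicate 1 was the low library among the day 7 hearts, and the groups did not overlap. The related Ankrd2, which passed the count filter through day 1 alone, had 642 reads over the day 1 group and 11 over the day 7 group, which after scaling is a ratio of 87.7 (95% exact interval for counting error 48.7 to 177). In the whole list of stress and fetal-type genes, 2 of 18 tested members were higher at day 7 and 15 lower, with a median of -2.06. Actn1 (alpha-actinin 1), with Tnfrsf12a, Ccn2, Xirp1, Myl4, Xirp2, Rcan1, Acta1 and Csrp3, made up the other 9 that fell, from -3.18 to -0.84. The call for Myl4, an atrial light chain, rested on day 1 replicate 3, without which it stood at -0.33 (adjusted p = 0.38). That library was also the high one for the atrial gene Myl7 described below, and the part of atrial tissue was not tested. Acta1 stood at -2.21 (adjusted p = 2.14e-05) without day 7 replicate 3. The 2 that rose were Myh7, the slow myosin heavy chain (1.06), and Fhl2 (0.85), and Nppa, the gene of atrial natriuretic peptide, stood at -0.54 (adjusted p = 0.139), or -1.04 (adjusted p = 0.00143) without day 7 replicate 3.

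**Figure D2:**
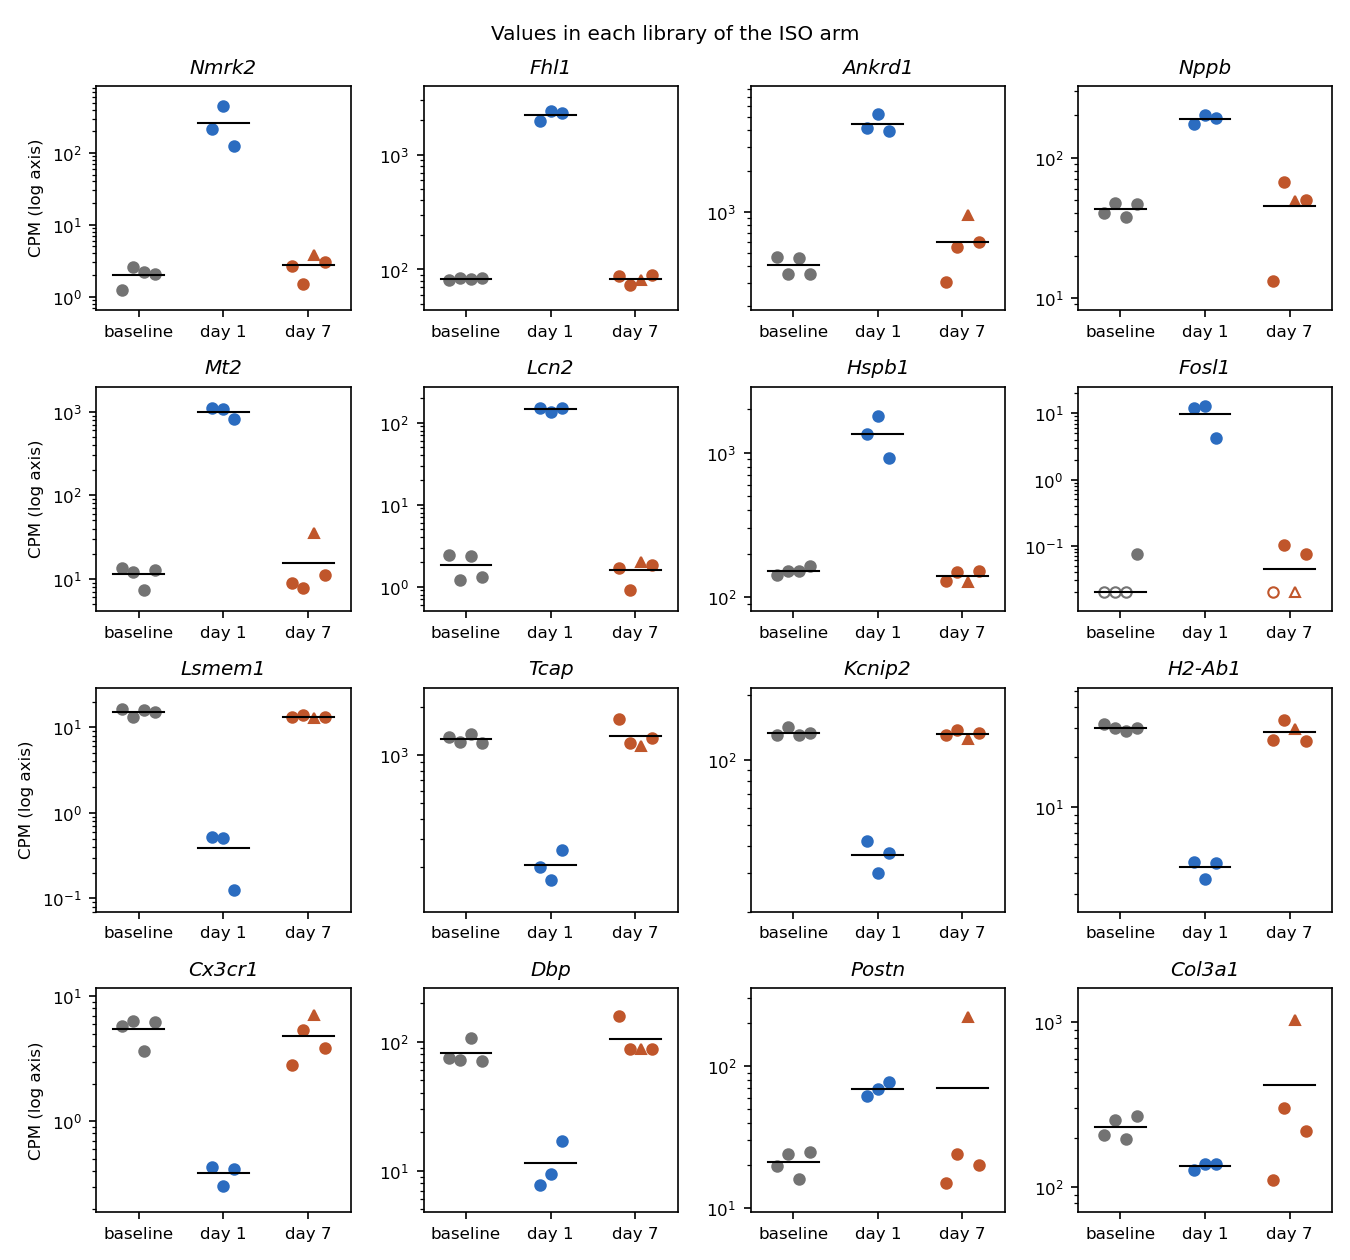
Each panel plots 1 gene in CPM on a log axis for the 4 baseline, 3 day 1 and 4 day 7 libraries of the ISO arm, with a line at the group mean, a triangle for day 7 replicate 3, and open symbols at the lower edge for values of 0. The first 8 genes fell from day 1 to day 7 and the next 6 rose, without overlap between the days, while Postn and Col3a1 were highest in day 7 replicate 3 (221 and 1024 CPM).

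Transcription factors of the early response were lower on day 7 in almost every case. Immediate early genes code for factors that cells switch on within minutes of a stimulus without new protein synthesis. Of 26 tested, 25 fell and 0 rose (median -2.22), and Jun stood at -0.13 (adjusted p = 0.434). Fosl1, a subunit of the AP-1 factor, was at 12.2, 13 and 4.25 CPM on day 1 and at 0, 0.102, 0 and 0.0746 CPM on day 7. It had 769 reads over the day 1 group and 5 over the day 7 group, which after scaling is a ratio of 231 (95% exact interval for counting error 98.6 to 714), and it passed the filter through day 1 alone. Its log2 change was -8.45 (adjusted p = 1.89e-07) without day 7 replicate 2. The 3 day 1 hearts were all above the day 7 hearts, with replicate 3 the lowest of the 3. Maff, another leucine zipper factor, was at 49.9, 54.3 and 38.8 CPM against 3.92, 4.24, 5.91 and 4.21 CPM (log2 change -3.38, SE 0.16, adjusted p = 7.15e-14). Nr4a3 (-3.76), an orphan nuclear receptor, Csrnp1 (-2.36) and Zfp36 (-2.33), which promotes decay of cytokine messages, fell as well.

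Signalling genes downstream of hormones and cytokines followed. Of 12 genes known to respond to glucocorticoids, 10 fell, among them Cdkn1a, an inhibitor of cell cycle kinases, from 289.96, 286 and 259 CPM to 10.2, 11.4, 19.4 and 14.4 CPM (log2 change -4.33, SE 0.21, adjusted p = 1.08e-13). Errfi1 (-2.43), Sgk1 (-2.28) and Fkbp5 (-2.87) fell too, and the receptor gene Nr3c1 (0.52) and Klf9 (0.36) rose. Fkbp5 was uneven on day 7, at 31.8, 9.78, 37.4 and 18.3 CPM. In the IL-6 family and prosurvival list, 3 of 20 tested members were higher at day 7 and 14 lower, with a median of -0.86. Stat3, the transcription factor that IL-6 type receptors activate, went from 425, 438 and 432 CPM to 109, 121, 127 and 113 CPM (log2 change -1.88, SE 0.07, adjusted p = 6.36e-15). Its feedback inhibitor Socs3 (-3.94) and the oncostatin M receptor Osmr (-2.41) were lower in every day 7 heart than in any day 1 heart. The receptor genes Il11ra1 (0.84) and Lifr (0.88) and the ligand Ctf1 (1.70) rose. Il6 and Lif passed the count filter through their day 1 level alone, and the median over members above it on both days was -0.48. The ligands Osm and Il11 did not pass it.

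Secreted stress and growth factors gave a similar split, with 3 of 20 tested members higher, 14 lower and a median of -1.19. Fstl3, a secreted inhibitor of activins, was at 62.6, 82.1 and 75.9 CPM and then at 4.42, 4.86, 5.02 and 4.63 CPM (log2 change -3.96, SE 0.15, adjusted p = 3.32e-15). The activin subunit genes Inhbb (-4.95) and Inhba (-2.86) fell as well. Thbs1, a matrix protein that activates latent TGF-beta, fell by 4.53 on the log2 scale and was uneven on day 7, at 2.62, 7.37, 17 and 7.24 CPM, with -5.12 (adjusted p = 3.12e-11) without replicate 3. Ereg, an EGF receptor ligand that passed the filter through day 1 alone, had 643 reads over the day 1 group and 7 over the day 7 group, which after scaling is a ratio of 138 (95% exact interval for counting error 66.6 to 345). Igf1 (1.58), Apln (0.86) and Vegfa (0.75) were the 3 that rose.

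Metallothionein and acute-phase genes were high on day 1 and near the untreated level on day 7. Metallothioneins bind zinc and copper and are switched on by metals, glucocorticoids and oxidants. Mt2 (ENSMUSG00000031762, chromosome 8, 94172664 to 94173568, mm10), protein-coding, was at 1107, 1086 and 821 CPM on day 1 and at 8.91, 7.78, 35 and 11 CPM on day 7 (log2 change -6.00, SE 0.45, adjusted p = 1.08e-10). All day 1 hearts were above all day 7 hearts, and day 7 replicate 3 was the high library of its group. Untreated hearts were at 7.45 to 13.7 CPM, and the log2 change was -6.77 (adjusted p = 2.88e-12) without that library. Its neighbour Mt1 went from 2695, 2668 and 2312 CPM to 129.7, 112, 176 and 123 CPM (log2 change -4.24, SE 0.20, adjusted p = 6.94e-14). The promoter of Mt2 is shown because the gene fell most among the metal-binding members and its upstream bases hold 5 matches to the core letters of the metal response element, TGCNCNC, searched on both strands and printed in capitals. It is the 250 bases before the RefSeq start in GRCm38.p6, plus strand, chr8:94172368-94172617.
Mt2: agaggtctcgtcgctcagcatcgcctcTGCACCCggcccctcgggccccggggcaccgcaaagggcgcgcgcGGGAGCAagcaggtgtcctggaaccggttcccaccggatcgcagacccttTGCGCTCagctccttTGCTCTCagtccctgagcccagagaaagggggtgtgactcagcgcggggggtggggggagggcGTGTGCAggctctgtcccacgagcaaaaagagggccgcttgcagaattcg

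The matches in Mt2 begin 223, 178, 128, 113 and 50 bases before the start, and the upstream bases of Mt1 hold 1. Over the 12 genes of the list with a promoter in the RefSeq table, 7 of 13 promoters held these letters (53.8%), against 44.4% of all 32851 promoters of that length. A match is a string of letters, and binding was not measured.

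Of 12 tested metallothionein and acute-phase genes, 10 fell and 0 rose (median -3.10), with Saa3 and Hp above the level of the count filter on day 1 alone. Without day 7 replicate 3, 11 of the 12 fell. Lcn2 (ENSMUSG00000026822, chromosome 2, 32384633 to 32388252, mm10), a secreted lipocalin that binds bacterial siderophores, was at 149.7, 136 and 152 CPM and then at 1.70, 0.917, 2.0 and 1.86 CPM (log2 change -6.49, SE 0.25, adjusted p = 4.74e-15). Serpina3n, a secreted protease inhibitor, went from 245, 227 and 207 CPM to 4.45, 2.51, 9.75 and 4.10 CPM (log2 change -5.43, SE 0.26, adjusted p = 7.53e-14), and day 7 replicate 3 was its high library. Lrg1 fell by 2.30 on the log2 scale. The serum amyloid Saa3 had 729 reads over the day 1 group and 6 over the day 7 group, which after scaling is a ratio of 183 (95% exact interval for counting error 83.4 to 499), and its log2 change went from -7.37 to -9.14 (adjusted p = 4.72e-10) without day 7 replicate 3. Saa1 (-2.39, adjusted p = 0.0567) and the ceruloplasmin gene Cp (-0.13, adjusted p = 0.345) did not pass the test, and Saa1 did without day 7 replicate 3, at -3.87 (adjusted p = 0.0229), and without day 1 replicate 2, at -2.73 (adjusted p = 0.0499). Hp stood at -1.51 (adjusted p = 0.00965), or -2.24 (adjusted p = 8.52e-04) without day 7 replicate 2.

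Chaperone genes were lower on day 7. Heat shock proteins keep other proteins from misfolding, and the small ones of muscle stabilise the sarcomere. Of 20 tested, 18 fell and 1 rose, Hsf1 (0.52), the factor that switches on the others, with a median of -0.76. Hspb1, a small heat shock protein, was at 1339, 1789 and 917 CPM and then at 129, 150.3, 128 and 151 CPM (log2 change -3.27, SE 0.20, adjusted p = 5.17e-12). The lowest day 1 heart, replicate 3, was still above each day 7 heart. Cryab, the small chaperone alpha-B crystallin, went from 4799.7, 5558 and 4554 CPM to 1208, 1210.2, 911 and 1224 CPM (log2 change -2.13, SE 0.12, adjusted p = 7.63e-13), and Hspb7, a small heat shock protein of heart muscle, fell by 1.84 on the log2 scale. Hspa1a, an inducible Hsp70 gene with the near-identical copy Hspa1b, was at 107, 87.3 and 31.2 CPM against 4.95, 5.70, 5.61 and 5.18 CPM (log2 change -3.81, SE 0.31, adjusted p = 3.46e-10), and the split of reads between the copies is uncertain. Hspb1 and Hspa1a are shown with their 250 upstream bases (RefSeq, GRCm38.p6; chr5:135887669-135887918, plus strand, and chr17:34972157-34972406, minus strand), with matches to the heat shock element letters GAANNTTC in capitals.
Hspb1: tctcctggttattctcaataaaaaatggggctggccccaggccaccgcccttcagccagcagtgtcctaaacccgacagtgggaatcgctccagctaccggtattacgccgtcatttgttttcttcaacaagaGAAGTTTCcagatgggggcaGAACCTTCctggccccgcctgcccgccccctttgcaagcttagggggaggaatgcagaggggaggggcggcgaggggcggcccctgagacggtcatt
Hspa1a: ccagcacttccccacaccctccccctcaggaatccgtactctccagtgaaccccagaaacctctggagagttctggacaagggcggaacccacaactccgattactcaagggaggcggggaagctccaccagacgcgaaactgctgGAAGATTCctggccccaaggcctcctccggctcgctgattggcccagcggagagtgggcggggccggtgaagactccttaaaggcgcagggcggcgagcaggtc

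Hspb1 holds 2 matches, which begin 117 and 97 bases before the start, and Hspa1a holds 1 at 104 bases. Among the heat shock genes, 8 of 21 promoters of 14 genes held the letters (38.1%), against 6.69% of all promoters in the table. The antioxidant response letters TGANNNNGC were found in 52.4% of promoters of NRF2 genes and in 35.2% of all. For the stress and fetal-type genes the M-CAT letters CATTCC were in 22.7% of promoters against 12.6%. The AP-1 letters TGANTCA were in 3.33% of immediate early promoters against 6.75%, and the cyclic AMP response letters TGACGTCA in 3 of 30 against 1.55%.

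Antioxidant genes that the factor NRF2 controls gave 18 of 20 lower and 2 higher, the glutathione transferases Gstm1 (0.34) and Gstp1 (0.42), with a median of -1.15. The call for Gstm1 was lost without any one of day 1 replicates 1 and 2 and day 7 replicates 1 and 4. Srxn1, which repairs oxidised peroxiredoxins, was at 309, 363 and 174 CPM and then at 13.9, 13.8, 17.5 and 14.6 CPM (log2 change -4.23, SE 0.21, adjusted p = 1.24e-13). Txnrd1 (-2.91, thioredoxin reductase) and Gclm (-2.76, a subunit of the enzyme that limits glutathione synthesis) fell, and in all 3 genes day 1 replicate 3 was the lowest of the day 1 hearts. Among genes of the unfolded protein and integrated stress responses, 3 of 26 tested members were higher at day 7 and 16 lower, with a median of -0.39. Xbp1 (-1.71) and Atf4 (-1.74), a central factor of each response, fell, as did the serine synthesis enzyme Psat1 (-2.77). The 3 that rose were Herpud1 (1.02), Pdia4 (0.41) and Shmt2 (0.24). Iron genes gave 2 higher and 4 lower of 10, with the ferritin light chain Ftl1 at 576, 605 and 428 CPM and then at 178, 184, 240.3 and 188 CPM (log2 change -1.44, SE 0.12, adjusted p = 7.75e-10).

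Genes of ribosomes, ribosome biogenesis, the proteasome and the cytoskeleton fell with few exceptions. Of 26 cytosolic ribosomal protein genes 25 were lower on day 7 and 0 higher (median -0.62), with Rpl22 at 0.02 (adjusted p = 0.809), which turned to -0.29 (adjusted p = 0.00415) with effective-length offsets and to -0.30 (adjusted p = 9.92e-04) on TPM. Summed over the list, they stood at 7181 to 7571 CPM on day 1, 4682 to 4793 CPM on day 7 and 4242 to 4597 CPM in untreated hearts. Ribosome biogenesis genes, which build ribosomes in the nucleolus, fell in 25 of 27 and rose in 1, Polr1a (0.23), which lost its call without day 1 replicate 3, at 0.09 (adjusted p = 0.309), and without any one of day 1 replicate 1 and day 7 replicates 1 and 4. Rrp12, a ribosome assembly factor, was at 139, 155 and 111 CPM and then at 17.4, 21.1, 18.4 and 22.7 CPM (log2 change -2.77, SE 0.11, adjusted p = 4.74e-15). Ddx21 (-1.88), a nucleolar helicase, and Gnl3 (-2.20), the nucleolar protein nucleostemin, fell too. All 25 proteasome genes fell (median -0.43), led by Psmd11, a lid subunit, from 198, 216 and 179.6 CPM to 57.6, 53.6, 54.8 and 58.8 CPM (log2 change -1.82, SE 0.08, adjusted p = 2.22e-14). The count was 24 of 25 without day 7 replicate 3.

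All 23 cytoskeleton and adhesion genes fell as well (median -1.16). Lmna, which codes for lamins of the nuclear envelope, was at 341, 329 and 345 CPM and then at 109, 122, 122 and 116 CPM (log2 change -1.52, SE 0.07, adjusted p = 1.81e-14). Itga5 (-2.62), the fibronectin receptor subunit, Tubb2a (-2.35), a tubulin, and Anxa2 (-2.02), a membrane-binding annexin, were lower in every day 7 heart than in each day 1 heart. Lysosome and autophagy genes gave 7 higher and 6 lower of 21, close to the shares over all genes. Their autophagy adaptor Sqstm1 fell by 1.32 on the log2 scale, and the lysosomal enzyme gene Hexa rose (0.99).

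**Figure D3:**
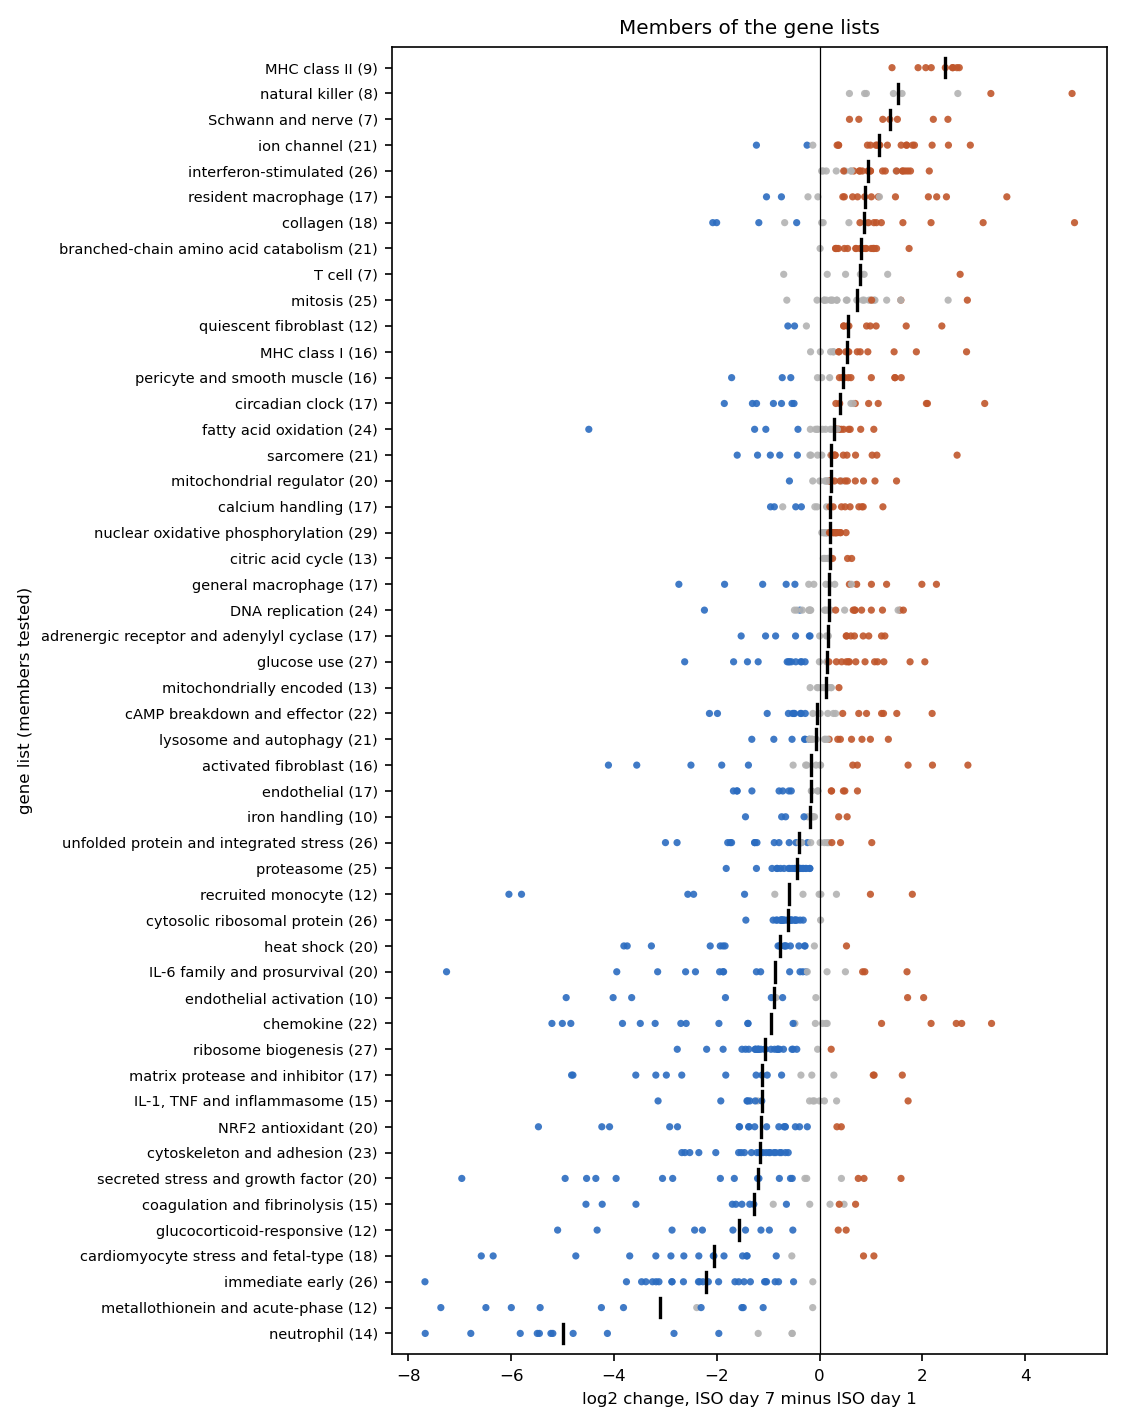
Each point is the log2 change, ISO day 7 minus ISO day 1, of 1 tested member of a gene list, and the black bar is the list median, for each list with at least 7 tested members, ordered by median. Orange and blue points passed the test upward and downward and grey points did not: medians run from -4.99 for neutrophil genes, 7 of which passed the count filter through day 1 alone, to 2.45 for MHC class II genes.

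Muscle genes that were low on day 1 were back near the untreated level on day 7. Lsmem1 (ENSMUSG00000071342, chromosome 12, 40175493 to 40199490, mm10), which is protein-coding and makes a small membrane protein, was at 0.518, 0.511 and 0.125 CPM on day 1 and at 13.1, 14.1, 12.8 and 13.1 CPM on day 7 (log2 change 5.07, SE 0.18, adjusted p = 1.11e-15). All 4 day 7 hearts lay far above the day 1 hearts, and untreated hearts stood at 13.3 to 16.3 CPM. Ky, a sarcomere-associated protein needed for muscle growth, was at 0.863, 0.681 and 1.96 CPM and then at 34.4, 27.2, 19.3 and 25.6 CPM (log2 change 4.53, SE 0.37, adjusted p = 4.05e-10). Lmod3, a leiomodin of muscle thin filaments, went from 8.54, 7.08 and 11 CPM to 76.8, 96.7, 77.2 and 91.3 CPM (log2 change 3.28, SE 0.19, adjusted p = 2.17e-12). Tcap, the titin cap protein telethonin, was at 201, 166 and 254 CPM and 1679, 1198, 1146 and 1270.02 CPM (log2 change 2.67, SE 0.13, adjusted p = 6.84e-14), with day 7 replicate 1 the highest library.

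The sarcomere list as a whole was mixed, with 11 of 21 higher, 5 lower and a median of 0.23. Mybpc3, myosin-binding protein C, was higher in each day 7 heart than in any day 1 heart and stood at 1579, 1540.1 and 1579 CPM against 3178, 3787, 3233 and 3360.01 CPM (log2 change 1.11, SE 0.08, adjusted p = 5.61e-11). The 5 that fell were Pdlim5 (-1.60), Myot (-1.21), Des (-0.96), Actn2 (-0.77) and Ldb3 (-0.43), which belong to the Z-disc or, for desmin, to the filaments around it. Z-disc genes did not fall as a class, since Tcap (2.67) and Nebl (0.70) rose and Myoz2 stood at -0.04 (adjusted p = 0.649).

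Ion channel genes were mostly higher on day 7. These channels set the resting potential, the upstroke and the repolarisation of the cardiac action potential. Of 21 tested, 18 rose and 2 fell (median 1.16). Kcnip2, the subunit that cardiac transient outward potassium channels need, was at 42.5, 30.2 and 37.1 CPM and then at 131, 138, 125 and 132 CPM (log2 change 1.85, SE 0.13, adjusted p = 4.82e-11), and untreated hearts were at 129.9 to 143 CPM. The pacemaker channel gene Hcn4 rose by 2.19 on the log2 scale, without overlap. Kcna5 fell (-0.24, adjusted p = 0.0196), a call that was lost without any one of day 1 replicates 2 and 3 and day 7 replicate 1, and the gap junction gene Gja1 stood at -0.13 (adjusted p = 0.361). The potassium channel genes Kcnv2 (2.93), Kcnj3 (2.51) and Kcnd2 (1.70) rose as well.

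Calcium handling genes gave 9 higher and 4 lower of 17. Pln, phospholamban, which restrains the calcium pump of the sarcoplasmic reticulum, was at 1504, 1127 and 1738 CPM and then at 3794, 3519, 2818 and 3554 CPM (log2 change 1.23, SE 0.13, adjusted p = 3.22e-08), with replicate 3 the lowest day 7 heart. The L-type calcium channel gene Cacna1c (0.85) and Asph (0.76) rose. The sodium-calcium exchanger Slc8a1 (-0.95), Srl (-0.88), Jph2 (-0.46) and the plasma membrane calcium pump Atp2b1 (-0.35) fell, and the ryanodine receptor Ryr2 stood at 0.14 (adjusted p = 0.167), or 0.20 (adjusted p = 0.0369) without day 7 replicate 3.

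Genes of the pathway that isoproterenol acts on went in both directions. Of 17 receptor, cyclase and desensitization genes 8 were higher and 6 lower, with a median of 0.17. The adrenergic receptor genes Adrb1 (0.61), Adra1a (1.2), Adra1b (0.96) and Adra1d (1.27) were among those that rose. Adcy5, a main cardiac adenylyl cyclase, was at 79.6, 74.1 and 81.8 CPM and then at 141, 148, 126 and 150.02 CPM (log2 change 0.85, SE 0.08, adjusted p = 6.66e-09). The receptor kinases, which uncouple activated receptors, went down: Grk3 was at 28.9, 31.4 and 34.5 CPM against 11.2, 11, 9.82 and 11.9 CPM (log2 change -1.52, SE 0.10, adjusted p = 1.05e-11), Grk5 fell by 1.05, Grk6 by 0.47 and Grk2 by 0.19 on the log2 scale. The days did not overlap for Grk3 or Grk5.

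Downstream, of 22 genes of cyclic AMP breakdown and effectors 7 were higher and 10 lower (median -0.06). The share higher was near the 33.2% over all genes. Pde4a, a phosphodiesterase, was at 21, 19.3 and 21.1 CPM and then at 104, 99.8, 74.5 and 94.4 CPM (log2 change 2.19, SE 0.16, adjusted p = 8.12e-11). The related Pde4b (-1.99) and Pde4d (-0.37) fell, and the call for Pde4d was lost without day 1 replicate 1 or without day 7 replicate 2 or 3. Prkaca, the catalytic subunit of protein kinase A, rose (0.91), and so did its inhibitors Pkia (1.5) and Pkig (1.21). Pkia went from 48, 38.9 and 43 CPM to 145, 126, 98.4 and 121 CPM.

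Fuel genes changed unevenly. Pdk4, a kinase that shuts off pyruvate dehydrogenase and is switched on when fatty acids are burned, was at 4380.3, 3953 and 3577 CPM on day 1 and at 163, 122, 280.3 and 143 CPM on day 7 (log2 change -4.49, SE 0.50, adjusted p = 4.88e-08). The day 7 values lay within the untreated range of 100.2 to 370.4 CPM. Cd36, a fatty acid transporter, fell (-1.05), and Cpt2 (1.06) and Acadm (0.80) of the oxidation pathway rose, in a list with 11 higher and 4 lower of 24. The number higher was 15 of 24 without day 7 replicate 3 and 10 of 24 without day 1 replicate 2. Glucose genes gave 13 higher and 12 lower of 27. The muscle phosphofructokinase Pfkm (1.07) and the insulin-responsive transporter Slc2a4 (1.25) rose, and the platelet-type phosphofructokinase Pfkp (-1.40), the transporter Slc2a1 (-1.19), Pgam1 (-1.67) and the lactate exporter Slc16a3 (-2.62) fell. Pfkm was at 419, 405 and 430.3 CPM and then at 916, 963, 753 and 879 CPM (log2 change 1.07, SE 0.08, adjusted p = 2.24e-10).

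Branched-chain amino acid catabolism, the mitochondrial breakdown of leucine, isoleucine and valine, was higher on day 7 in 20 of 21 genes, with Dld at 0.01 and a median of 0.81. Ppm1k, the phosphatase that activates the dehydrogenase complex of the pathway, was at 25.8, 23 and 27.9 CPM and then at 102, 86.6, 70.6 and 82.2 CPM (log2 change 1.74, SE 0.12, adjusted p = 4.77e-11). Replicate 3 was the lowest day 7 heart and was still above the day 1 hearts. Mut (1.11), Mccc1 (1.07) and Dbt (1.04), enzymes of the later steps and of the complex, rose by about the same amount. Citric acid cycle genes rose in 5 of 13, near the 33.2% over all genes, and fell in 0. Idh2 (0.62) and Ogdh (0.54) rose most. Over left-out libraries the number that rose ran from 2, without day 1 replicate 1 or 2 or day 7 replicate 1, to 11 without day 7 replicate 3. Nuclear genes of oxidative phosphorylation rose in 17 of 29 and fell in 0, by small amounts (median 0.20, highest Ndufs7 at 0.52). Their count was 9 without day 1 replicate 2, and 20 without day 1 replicate 3 or day 7 replicate 3. Of the 13 transcripts that mitochondria encode, 1 rose, mt-Nd3 (0.38), a call that was lost without day 1 replicate 2 or day 7 replicate 1. Without either of those libraries 0 of the 13 rose and 1 fell, while 4 rose without day 7 replicate 3. Of 20 regulators of mitochondria 11 rose and 1 fell, Nrf1 (-0.59). The number that rose was 6 without day 1 replicate 2 and 13 without day 7 replicate 3. The nuclear receptor Esrrg stood at 1.08. The coactivator Ppargc1a was at 0.43 (adjusted p = 0.0851), or 0.58 (adjusted p = 0.0474) without day 1 replicate 3.

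Leukocyte genes are given by cell type. Neutrophils are the first leukocytes to enter injured tissue. Their genes were high on day 1, when the 14 tested members summed to 16.6 to 26.9 CPM, against 2.54 to 3.84 CPM on day 7 and 2.52 to 3.20 CPM in untreated hearts. They fell in 11 of 14 (median -4.99), but 7 of them were above the level of the count filter on day 1 alone. The fall of those 7, which include Clec4d and Il1r2, is not separate support. The median of the few members above that level on both days was -0.54, the value of Csf3r. Clec4d, a C-type lectin receptor, was at 6.34, 6.16 and 5.87 CPM and then at 0.106, 0.0340, 0.525 and 0.186 CPM (log2 change -4.79, SE 0.40, adjusted p = 6.41e-10), or -5.78 (adjusted p = 5.30e-11) without day 7 replicate 3, its highest day 7 heart. Il1r2, a decoy receptor for IL-1, had 212 reads over the day 1 group and 1 over the day 7 group, which after scaling is a ratio of 318 (95% exact interval for counting error 56.5 to 12636). Ly6g, Mpo and Camp did not pass the filter.

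Recruited monocyte genes gave 2 higher and 5 lower of 12. Vcan, a proteoglycan that monocytes and fibroblasts make, was at 90.5, 105 and 87.8 CPM and then at 11.1, 16, 28.2 and 13.7 CPM (log2 change -2.45, SE 0.21, adjusted p = 9.61e-10), and the lipopolysaccharide co-receptor Cd14 fell by 2.56 on the log2 scale. Chil3 had 158 reads over the day 1 group and 3 over the day 7 group, which after scaling is a ratio of 79.1 (95% exact interval for counting error 26.6 to 388), with a log2 change of -6.04, or -6.93 (adjusted p = 3.70e-07) without day 7 replicate 3. Arg1, arginase 1, had 206 reads over the day 1 group and 5 over the day 7 group, which after scaling is a ratio of 61.9 (95% exact interval for counting error 26.1 to 193). Ly6c2, Chil3 and Arg1 were among the members that passed the filter through day 1 alone, and the median over members above it on both days was 0.18. The 2 that rose were Trem2 (1.80) and Ccr2 (0.99). Without day 7 replicate 3, Trem2 stood at 0.87 (adjusted p = 0.0460) and Ccr2 at 0.56 (adjusted p = 0.189), the call for Ccr2 was also lost without any one day 1 library, and the median of the list went from -0.60 to -1.0.

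Genes of resident cardiac macrophages were mostly higher on day 7, with 12 of 17 higher, 2 lower and a median of 0.88. Cx3cr1, the fractalkine receptor, was at 0.431, 0.306 and 0.417 CPM and then at 2.83, 5.37, 7.06 and 3.88 CPM (log2 change 3.64, SE 0.33, adjusted p = 2.44e-09). It passed the filter through day 7 alone, as did Timd4 and Fcna, and the median over members above it on both days was 0.64. Cbr2, a carbonyl reductase, went from 1.94, 2.72 and 2.25 CPM to 11.7, 12.7, 15.6 and 11.4 CPM (log2 change 2.47, SE 0.17, adjusted p = 2.59e-11) and Mgl2 rose by 2.28, both without overlap. Lyve1 (-1.03), a hyaluronan receptor, and Cd163 (-0.74), a haemoglobin scavenger receptor, fell. Without day 7 replicate 3, 11 of 17 were higher, with a median of 0.55. General macrophage genes were mixed (6 higher and 5 lower of 17), near the shares over all genes. Adgre1, the F4/80 antigen, rose from 1.51, 2.18 and 1.29 CPM to 5.37, 6.15, 16.2 and 4.74 CPM (log2 change 2.27, SE 0.36, adjusted p = 8.08e-06), and Itgam, an integrin of myeloid cells, fell from 33.2, 37.6 and 33.7 CPM to 3.5, 5.20, 8.37 and 3.73 CPM (log2 change -2.74, SE 0.21, adjusted p = 2.17e-10). In both genes replicate 3 was the highest day 7 heart, and the days did not overlap. Adgre1 stood at 1.69 (adjusted p = 1.07e-06) without it.

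MHC class II genes, by which macrophages, dendritic and B cells present antigen, rose in all 9 tested members (median 2.45). H2-Ab1, a class II beta chain, was at 4.70, 3.68 and 4.62 CPM and then at 25.4, 33.4, 29.5 and 25.1 CPM (log2 change 2.72, SE 0.18, adjusted p = 1.07e-11), and untreated hearts were at 28.5 to 31.3 CPM. The class II chains H2-Eb1 (2.58), H2-Aa (2.59) and the invariant chain Cd74 (2.07) rose without overlap. Summed, the list stood at 26 to 36.1 CPM on day 1 and 138 to 185 CPM on day 7, and without day 7 replicate 3 all 9 were still higher (median 2.15). Without day 1 replicate 3, 8 of the 9 were called higher. H2-DMb1 and Ciita passed the filter through day 7 alone. Of 16 class I and antigen processing genes 11 rose and 0 fell, and the immunoproteasome subunit Psmb9 went from 0.776, 1.02 and 0.708 CPM to 6.11, 5.81, 5.97 and 6.79 CPM (log2 change 2.86, SE 0.18, adjusted p = 8.41e-12). H2-T23 (1.45), Erap1 (0.57) and Tapbp (0.55) rose as well. The 5 not called were the class I chains H2-K1 (0.27), H2-D1 (0.02), H2-Q4 (0.27), H2-Q6 (-0.17) and H2-Q7 (0.22). The number that rose was 9 of 16 without day 7 replicate 3, and also without day 1 replicate 3. Interferon-stimulated genes rose in 18 of 26 and fell in 0 (median 0.95). Cmpk2, a mitochondrial nucleotide kinase, went from 2.07, 2.14 and 2.62 CPM to 6.33, 8.73, 6.43 and 8.54 CPM (log2 change 1.72, SE 0.20, adjusted p = 1.46e-07), and Rsad2 (1.5) and Bst2 (1.23) rose too.

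Chemokines, which direct leukocytes into tissue, fell in 12 of 22 and rose in 5. Ccl2, which attracts monocytes, was at 16, 12.8 and 8.16 CPM and then at 0.813, 0.883, 1.02 and 0.709 CPM (log2 change -3.83, SE 0.36, adjusted p = 4.18e-09), and Ccl6 (-2.70) and Ccl9 (-2.59) fell too. Ccl21a, a chemokine of lymphatic vessels, rose from 1.73, 1.53 and 1.67 CPM to 17.6, 13.8, 18.6 and 16.6 CPM (log2 change 3.34, SE 0.14, adjusted p = 1.06e-14), close to the untreated 13.3 to 17.1 CPM. Its reads may be shared with near-identical copies. Ccl8 (2.76), Cxcl9 (2.66), Ccl5 (2.17) and Ccl24 (1.21) were the other 4 that rose. Leaving out single libraries ended the calls for Ccl8 (without day 7 replicate 3, 0.68 (adjusted p = 0.501)), Ccl5 and Ccl24. Ccl3, Ccl7, Cxcl2 and Cxcl5 passed the filter through day 1 alone and Ccl24 through day 7 alone, and the median over members above it on both days was -0.52 against -0.95 over all tested. In the IL-1, TNF and inflammasome list 7 of 15 fell and 1 rose, the inflammasome adaptor Pycard (1.72), with the TNF receptor Tnfrsf1a at -1.40 and the adaptor Myd88 at -1.41. Its median was -1.12, or -0.13 over members above the filter on both days. Lymphocyte genes were scarce on both days. T cell genes summed to 0.733 to 1.12 CPM and 1.34 to 2.14 CPM, natural killer genes to 0.292 to 0.474 CPM and 0.565 to 1.54 CPM, and B cell genes to 0.833 to 1.94 CPM and 4.98 to 6.14 CPM. Of tested members, 1 of 7 T cell, 2 of 8 natural killer and 2 of 5 B cell genes were called higher and 0 lower. Over all genes 33.2% were called higher. Trac (2.73), Ighm (2.76) and Ighd (1.6) rose, Trac having passed the filter through day 7 alone. Gzma and Gzmb were called higher with 0 reads in all 3 day 1 libraries, so no fold is given. The calls for Gzmb and Ighd were lost when single day 1 libraries were left out, and that for Gzmb also without day 7 replicate 3.

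Several fibroblast and matrix results depended on 1 heart. Fibroblasts lay down collagen in the healing heart, and periostin (Postn) marks their activated state. Postn was at 61.8, 68.8 and 77.3 CPM on day 1 and at 14.9, 24.1, 221 and 20.2 CPM on day 7 (log2 change 0.02, SE 0.56, adjusted p = 0.979). Replicate 3 was above and the other 3 day 7 hearts were below every day 1 heart, and without replicate 3 the log2 change was -1.81, adjusted p = 1.78e-07. Cilp, a matrix protein of activated fibroblasts, was at 8.02, 6.5 and 11.9 CPM and then at 11, 14.8, 119 and 14.9 CPM (log2 change 2.2, SE 0.56, adjusted p = 0.00163), and at 0.63, adjusted p = 0.00144 without that heart. Timp1, a metalloproteinase inhibitor, fell from 36.8, 40.6 and 30.03 CPM to 0.990, 1.05, 5.25 and 0.858 CPM (log2 change -4.11, SE 0.34, adjusted p = 5.75e-10), and Lox, which crosslinks collagen, from 94.1, 110.2 and 108 CPM to 2.65, 3.06, 25.1 and 4.14 CPM (log2 change -3.56, SE 0.43, adjusted p = 1.95e-07). In these 2 genes replicate 3 lay between the other day 7 hearts and the day 1 hearts, and without it they stood at -5.20 (adjusted p = 1.58e-14) and -4.99 (adjusted p = 2.75e-17). The list of activated fibroblast genes gave 5 higher and 5 lower of 16 (median -0.16) with all 4 hearts, near the shares over all genes, and 4 higher and 10 lower (median -1.40) without replicate 3. Comp, a matrix protein that passed the filter through day 7 alone (2.88, or 3.87 (adjusted p = 1.42e-05) without day 1 replicate 3), and the fibroblast protease gene Fap (1.72) were among those that rose with all 4 hearts.

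A score for each list, the mean over its members of log2 CPM minus the ISO baseline mean, shows the same heart. For activated fibroblast genes the score was 1.21, 1.25 and 1.24 on day 1 and -0.43, 0.05, 1.95 and -0.12 on day 7. For collagens it was -0.33, -0.25 and -0.30 and -0.59, 0.18, 1.2 and -0.04. General macrophage genes scored -0.22, 0.04, 0.92 and -0.17 and mitosis genes -0.69, 0.53, 1.33 and -0.37 in the 4 day 7 hearts, again highest in replicate 3, while the erythroid score was lowest there (0.38, 0.02, -2.23 and 0.77). The stress list scored -0.30, -0.02, 0.38 and 0.18 in the 4 hearts, also highest in replicate 3, and ribosome biogenesis genes scored 0.00, 0.03, -0.01 and 0.00. The part of the low haemoglobin reads of this heart in these values was not tested.

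**Figure D4:**
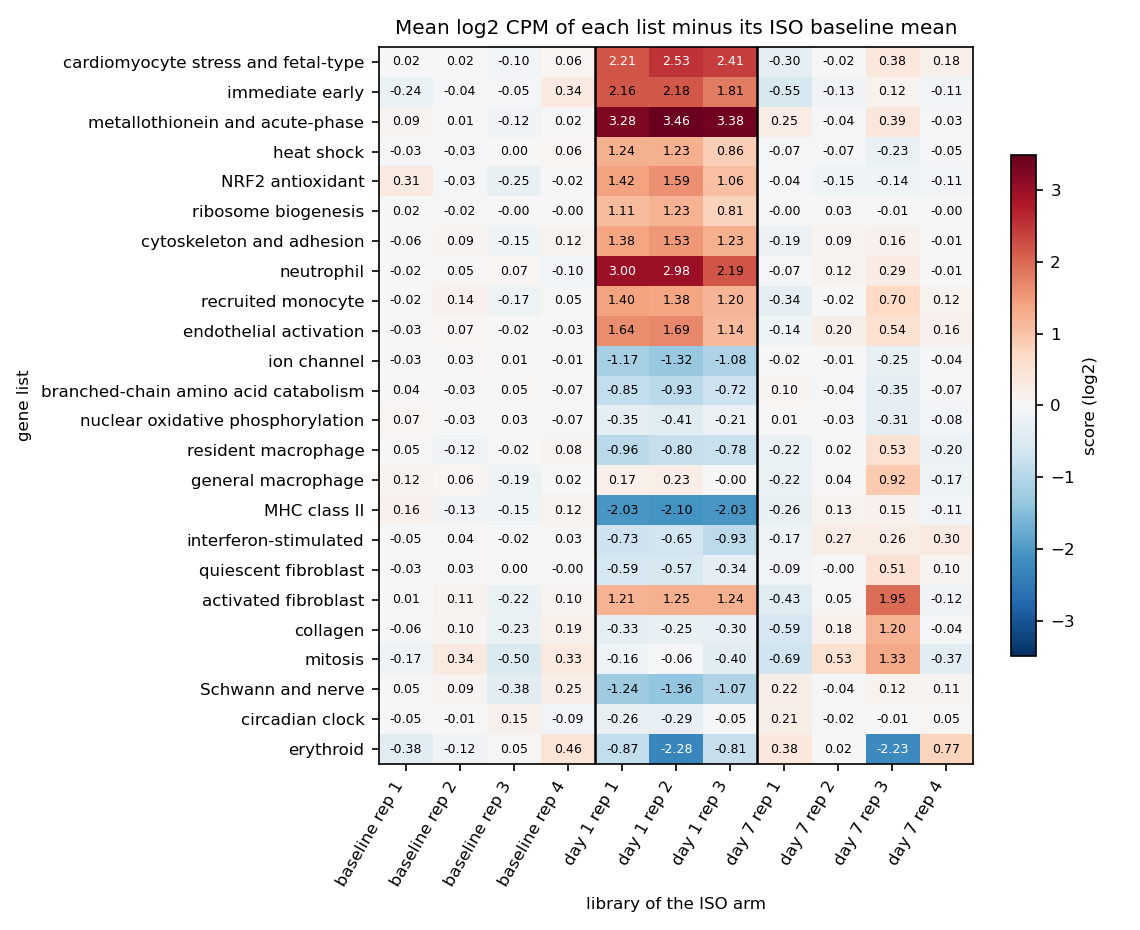
Rows are gene lists and columns the 11 libraries of the ISO arm, with vertical lines between baseline, day 1 and day 7, and each cell gives the mean log2 CPM of the list minus its ISO baseline mean. Day 7 replicate 3 stands apart from the other day 7 libraries for activated fibroblast (1.95), collagen (1.2), mitosis (1.33) and erythroid genes (-2.23).

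Collagens went in both directions. The basement membrane collagen Col4a1 was at 2376, 2585 and 2147 CPM and then at 337, 611, 735 and 564 CPM (log2 change -2.08, SE 0.18, adjusted p = 1.02e-09), and its partner Col4a2 fell alike (-2.0). Col14a1, a fibril-associated collagen, rose from 3.75, 3.27 and 3.46 CPM to 17.6, 26.6, 60.1 and 22 CPM (log2 change 3.18, SE 0.32, adjusted p = 1.44e-08). Col12a1, also fibril-associated, fell (-1.18, adjusted p = 0.0112, or -2.11 (adjusted p = 5.45e-07) without day 7 replicate 3), and Col15a1, of the basement membrane zone, rose (2.17). Col6a6, which passed the filter through day 7 alone, rose from 0.431, 0.272 and 0.50 CPM to 9.08, 11.7, 17.2 and 11.3 CPM (log2 change 4.96, SE 0.29, adjusted p = 1.51e-12). The fibrillar Col3a1 was at 127, 137 and 139 CPM and then at 110.2, 303, 1024 and 218 CPM (log2 change 1.62, SE 0.46, adjusted p = 0.00388). Replicate 1 lay below the day 1 hearts and replicate 3 far above, and the change was 0.65, adjusted p = 0.0563 without replicate 3. Over the list, 9 of 18 were higher and 4 lower, against 6 and 6 without that heart (median 0.86 against 0.21).

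Genes of quiescent fibroblasts rose in 9 of 12, with Lum, the proteoglycan lumican, at 7.94, 11.5 and 10.4 CPM and then at 43.2, 44.9, 76.8 and 43.1 CPM (log2 change 2.38, SE 0.19, adjusted p = 3.59e-10). Gsn (0.99), Dpt (0.91) and Pi16 (1.68) rose without overlap, and Mgp (-0.62) and Pdgfra (-0.49) fell. The count was 8 of 12 without day 7 replicate 3. Matrix proteases and their inhibitors fell in 11 of 17 and rose in 3, Mmp15 (1.61), Mmp2 (1.06) and Timp2 (1.04). Adamts1, a protease that cleaves versican, went from 246, 323 and 192 CPM to 25.9, 24.3, 35.1 and 26.4 CPM (log2 change -3.18, SE 0.27, adjusted p = 9.07e-10), and Mmp3 (-3.57), Adamts9 (-2.68) and Adam8 (-4.82, or -5.87 (adjusted p = 2.20e-13) without day 7 replicate 3) fell. Adam8 passed the filter through day 1 alone. Prg4, the lubricating proteoglycan lubricin, was at 712, 737 and 643 CPM and then at 12.1, 10.1, 9.59 and 9.85 CPM (log2 change -6.07, SE 0.16, adjusted p = 1.29e-17), near the untreated 9.55 to 13 CPM in all 4 hearts. Coagulation and fibrinolysis genes fell in 9 of 15 and rose in 2, F3 (0.38) and Tfpi (0.70), with Plaur, the urokinase receptor, at 32.3, 33.1 and 21.5 CPM and then at 1.02, 1.49, 2.2 and 1.42 CPM (log2 change -4.23, SE 0.27, adjusted p = 8.13e-12).

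Genes of activated endothelium were mostly lower on day 7. Icam1, to which leukocytes bind on activated endothelium, was at 170.4, 134 and 90.1 CPM and then at 8.34, 9.98, 12 and 11.4 CPM (log2 change -3.65, SE 0.17, adjusted p = 5.69e-14). The selectins Selp (-4.93) and Sele (-4.02) and Vcam1 (-1.83) fell too, and in all 4 genes day 1 replicate 3 was the lowest day 1 heart. Selp passed the filter through day 1 alone and Esm1 through day 7 alone. Endothelial activation genes gave 6 lower and 2 higher of 10, Esm1 (2.02, or 2.61 (adjusted p = 3.12e-05) without day 1 replicate 2) and Nos2 (1.71). Of 17 endothelial identity genes 8 were lower and 5 higher. Fabp4, a fatty acid binding protein of capillaries, went from 879, 765 and 748 CPM to 286, 238, 266 and 258 CPM (log2 change -1.61, SE 0.11, adjusted p = 4.11e-11) and Gpihbp1, which anchors lipoprotein lipase, fell by 1.6, while Kdr stood at -0.04 (adjusted p = 0.726). Pericyte and smooth muscle genes rose in 10 of 16 and fell in 3, Acta2 (-1.71), Mcam (-0.73) and Cspg4 (-0.56). Abcc9, a subunit of ATP-sensitive potassium channels, was at 149, 145 and 157 CPM and then at 448, 414, 387 and 410.1 CPM (log2 change 1.46, SE 0.08, adjusted p = 1.49e-12). Aplnr, the apelin receptor, rose from 2.93, 3.27 and 2.29 CPM to 20.9, 46.8, 40.6 and 33.9 CPM (log2 change 3.64, SE 0.28, adjusted p = 1.16e-10).

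Cell cycle genes did not move as a block. Of 25 mitosis genes 3 rose and 0 fell. Cenpf, a kinetochore protein, was at 4.61, 3.95 and 3.37 CPM and then at 30.5, 38.8, 17.7 and 29.8 CPM (log2 change 2.87, SE 0.27, adjusted p = 4.82e-09), with replicate 3 the lowest day 7 heart. Mki67, the proliferation antigen Ki-67, was at 2.42, 1.80 and 1.25 CPM and then at 1.59, 5.70, 12 and 2.31 CPM (log2 change 1.58, SE 0.62, adjusted p = 0.0290), with replicate 3 the highest and an overlap between the days. Without that heart Mki67 was at 0.83, adjusted p = 0.221, and 1 of the 25 rose and 1 fell. Its call was also lost without day 1 replicate 2 or 3. Ccnb2, Kif11, Cenpe and Nusap1 passed the filter through day 7 alone, and the list median of 0.72 was 0.23 over members above it on both days. DNA replication genes gave 9 higher and 2 lower of 24, with the helicase subunit Mcm2 at 1.56 and the flap endonuclease Fen1 at -2.24. Without day 7 replicate 3 the list gave 7 higher and 4 lower, with a median of 0.01 against 0.19.

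Clock genes differed in both directions, 8 higher and 7 lower of 17. Dbp, a clock output factor whose level swings over the day, was at 7.72, 9.40 and 17.1 CPM and then at 159, 87.3, 87.7 and 87.3 CPM (log2 change 3.21, SE 0.29, adjusted p = 2.69e-09), with replicate 1 the highest library. Nr1d2 (1.14), Hlf (2.10) and Per3 (2.08) rose, and the activator gene Arntl fell (-1.85). The labels give the day of sampling but not the hour, so time of day and time since the dose cannot be told apart for these genes.

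Genes of nerve, blood, mesothelium and atrium were followed as markers of other cells. All 7 Schwann and nerve genes rose (median 1.36), from 5.89 to 6.46 CPM summed to 12.2 to 15.5 CPM, with Cdh19, a cadherin of Schwann cells, at 1.16, 1.02 and 1.21 CPM and then at 4.35, 1.63, 2.99 and 2.69 CPM (log2 change 1.36, SE 0.32, adjusted p = 6.46e-04), and 2 of the 7 passed the filter through day 7 alone. Without day 1 replicate 1, 5 of the 7 were called higher. Haemoglobin genes were uneven. Hba-a1 was at 106, 39.2 and 116 CPM and then at 282, 213, 50.6 and 352 CPM (log2 change 1.37, SE 0.50, adjusted p = 0.0206), with day 1 replicate 2 and day 7 replicate 3 the low libraries and an overlap between the days. The call was lost without day 1 replicate 2 (1.01 (adjusted p = 0.115)) or day 7 replicate 4. Its reads may be shared with the near-identical Hba-a2. Mesothelial genes gave 3 higher and 1 lower of 5, with Upk3b at 0.129, 0.170 and 0.0833 CPM and then at 5.80, 1.15, 0.722 and 1.49 CPM (log2 change 4.08, SE 0.95, adjusted p = 6.66e-04), highest in replicate 1 and 3.06 (adjusted p = 0.00371) without it. Upk3b passed the filter through day 7 alone. Wt1 fell (-1.33). The atrial myosin light chain Myl7 was at 0.259, 0.0340 and 9.58 CPM on day 1 and at 0.424, 0.577, 0.0328 and 0 CPM on day 7, high in 1 day 1 heart, replicate 3. Its log2 change was -3.63 (adjusted p = 0.00412), or 0.90 (adjusted p = 0.513) without that heart. The other tested atrial gene, Dkk3, was highest in day 7 replicate 3 (1.41, adjusted p = 0.0117) and stood at 0.78 (adjusted p = 0.101) without it. Its call was also lost without day 1 replicate 1 or 2, and it stood at 2.70 (adjusted p = 6.79e-05) without day 1 replicate 3. Adipocyte genes (2 tested) and the 1 tested skeletal muscle gene, Mylpf, did not pass the test.

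The same change from day 1 to day 7 was tested against that of the LPS arm in one model. The difference between the arms, (ISO day 7 minus ISO day 1) minus (LPS day 7 minus LPS day 1), passed the test for 6236 of 15732 genes (39.6%). Of a panel of 13 genes, 7 passed it. Nmrk2 changed by -6.58 in the ISO arm and stood at 0.42 in the LPS arm, where its means were 2.58 CPM on day 1 and 3.43 CPM on day 7, a difference of -6.99 (SE 0.70, adjusted p = 5.32e-08). Fhl1 fell by more after isoproterenol (-4.74) than after LPS (-1.68), with a difference of -3.06 (SE 0.22, adjusted p = 2.53e-10). Hspa1a differed by -2.76 (SE 0.44, adjusted p = 2.61e-05) and Nppb by -1.49 (SE 0.47, adjusted p = 0.0153) in the same direction. Lcn2 went the other way, with -6.49 against -9.60 and a difference of 3.11 (SE 0.36, adjusted p = 5.36e-07), from an LPS day 1 mean of 2014 CPM.

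Irf7, which drives interferon genes, changed in opposite directions. It rose from 6.08, 5.72 and 5.71 CPM to 7.49, 10.5, 10.6 and 13 CPM after isoproterenol (log2 change 0.83, SE 0.20, adjusted p = 0.00107) and went from a mean of 458 CPM to 44.2 CPM after LPS (log2 change -3.37), a difference of 4.20 (SE 0.26, adjusted p = 1.72e-11). H2-Ab1 differed by 0.60 (SE 0.22, adjusted p = 0.0370), with 2.72 in the ISO arm and 2.12 in the LPS arm. That call was lost without ISO day 7 replicate 3 (0.58, adjusted p = 0.0535) and without any one of 7 other libraries. Mt2 (-6.00 and -5.97) and Ankrd1 (-2.89 and -2.91) had nearly the same change in both arms, with differences of -0.02 (SE 0.55, adjusted p = 0.979) and 0.02 (SE 0.37, adjusted p = 0.980). The difference for Mt2 was -0.80, adjusted p = 0.143 without ISO day 7 replicate 3, the high library for that gene. For Fosl1, Kcnip2, Ppargc1a and Postn the difference did not pass the test, at 1.10 (SE 1.56, adjusted p = 0.609), 0.30 (SE 0.17, adjusted p = 0.168), -0.16 (SE 0.29, adjusted p = 0.693) and -0.63 (SE 0.79, adjusted p = 0.557), which does not show that the arms changed alike. Without ISO day 7 replicate 3 the difference for Postn was -2.46, adjusted p = 5.20e-07, and without LPS day 1 replicate 3 that for Kcnip2 was 0.40, adjusted p = 0.0458.

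**Figure D5:**
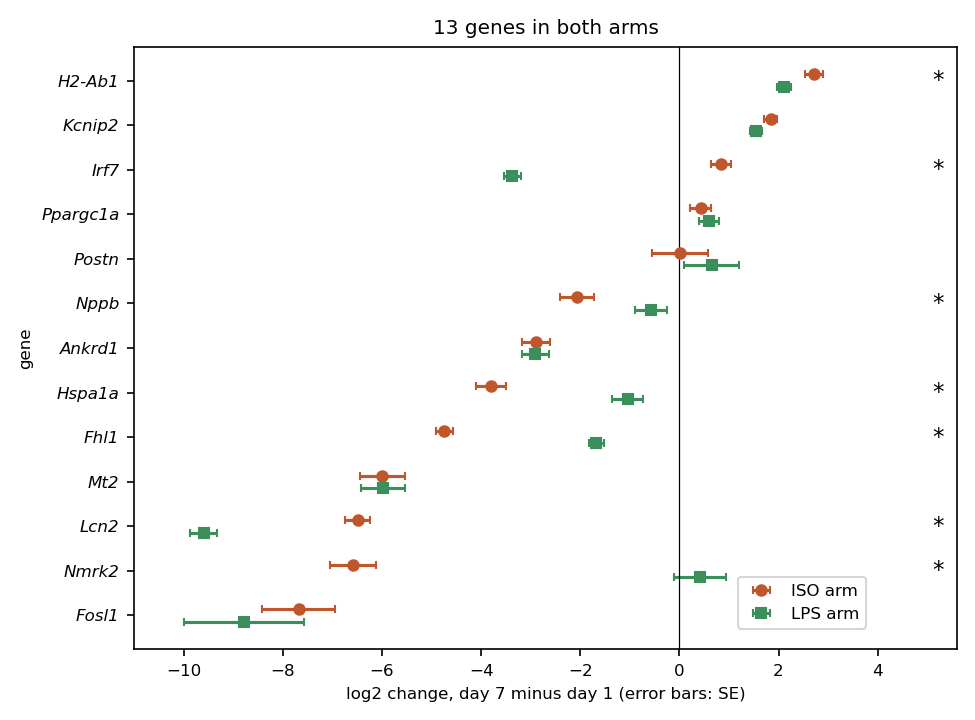
For each of the 13 panel genes, circles give the log2 change from day 1 to day 7 in the ISO arm and squares that in the LPS arm, with error bars of 1 SE, and an asterisk marks the 7 genes whose difference between the arms passed an adjusted p of 0.05. Nmrk2 (-6.58 and 0.42) and Irf7 (0.83 and -3.37) lie furthest apart, and Mt2 and Ankrd1 nearly coincide.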

How the data were processed

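Poly-A RNA of 23 mouse hearts in 6 groups was sequenced, and 7 libraries (ISO day 1, n = 3, and ISO day 7, n = 4) were compared here. Per the file headers, the authors' deposited table of each library gives an estimated count (NumReads), a TPM value and an effective length for each gene. Build mm10 and the tools bcl2fastq, DRAGEN, edgeR and limma are named in the submitters' processing notes without their roles, and the annotation version is not given in the sources used here. Of 55487 gene IDs, 55227 matched GENCODE M21 for symbols, and unmatched IDs held at most 0.00573% of reads.

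Estimated counts (9.50% not whole) were rounded. The 15732 genes that passed edgeR's filterByExpr (by group, minimum count 10) were fitted with TMM factors in one quasi-likelihood model of 6 group means over all 23 libraries (edgeR 4.0.16, R 4.3.3, biological coefficient of variation 11%), with Benjamini-Hochberg adjustment over all genes tested and calls at 0.05. The standard error is the size of the log2 change over the root of its F statistic. The script was tested on simulated data. Library totals were 24193737 to 30368985. A member was said to pass the filter through 1 day alone where at least 3 of its libraries, and fewer than 3 of the other day, reached 0.382 CPM. The filter used all 6 groups, so such a member may also have passed through another group. Alternatives used limma 3.58.1, DESeq2 1.42.0, TPM with a pseudocount of 0.1, effective-length offsets, other filters and left-out libraries. Permutation tests used scipy 1.17.1.

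Genes were named by rule: the 15 highest and 15 lowest changes among called protein-coding genes of at least 5 CPM without overlap, up to 4 members of each of 56 lists with the smallest adjusted p, a panel of 13, and the 10 other genes with the largest spread among day 7 libraries. Members of a list outside this rule, such as those that went against it, were chosen after their values were seen. Some genes that the rule would name are not reported here. The lists and genes were chosen with earlier results of these data known, so no count over them is independent evidence.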

Additional observations from a re-analysis of the deposited data

Results flagged for a closer look

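A gap between 1 day 7 library and the other 3 that passed Dixon's test at the 95% level was found for 33 of 279 genes and 3 of 24 list scores described above. For independent, normally spread values chance alone gives about 1 in 20 such groups. The genes share the same 4 hearts and some values rest on few reads, so no excess over chance can be read from these counts. Of the genes, 21 stood apart in replicate 3. Ltbp2, Thbs4, Tnc and Mfap4, which are described further below, were not among the genes put through this test. Replicate 3 was the high library, in CPM, for Actn1 (40.6), Adam8 (0.985), Adgre1 (16.2), Ccl8 (1.51), Cilp (119), Col12a1 (6.40), Dkk3 (9.26), Errfi1 (18.4), Ftl1 (240.3), Lox (25.1), Lum (76.8), Maff (5.91), Mt2 (35), Postn (221), Saa1 (0.0328), Sele (1.64) and Timp1 (5.25). It was the low library for Cryab (911), Fhl2 (1065), Jph2 (526) and Ndufs7 (372). Replicate 1 was the high one for Dbp (159), Herpud1 (239), Nr1d2 (111), Per3 (24.4) and Upk3b (5.80). Replicate 1 was the low one for Nos2 (10.7). Replicate 2 was the high one for Cxcl2 (0.102) and Il1r2 (0.0340). Replicate 2 was the low one for Ccl3 (0). Replicate 4 was the high one for Arg1 (0.0746) and Gsn (1360.2). Replicate 4 was the low one for Wt1 (2.46). The list score was -0.23 for heat shock genes in replicate 3, -0.25 for ion channel genes in replicate 3 and -0.17 for interferon-stimulated genes in replicate 1. Saa1 and Il1r2 rest on single reads there.

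The change from day 1 to day 7 differed between the ISO and LPS arms, by the test of the difference itself, for 7 of the 13 panel genes. The log2 difference, ISO minus LPS, was -1.49 for Nppb, -3.06 for Fhl1, -6.99 for Nmrk2, 3.11 for Lcn2, -2.76 for Hspa1a, 0.60 for H2-Ab1 and 4.20 for Irf7.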

How the results depend on the processing

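The counts of genes called, in either direction and at least 2-fold, stayed within 1.5 times of those reported under all 19 alternatives, and the count for the difference between arms did under its 25. Genes called ranged from 7964 with the replicate block (14749 genes, ISO day 1 and day 7 alone, against 9478 in the same fit without the block) to 10236, and over left-out libraries from 9330 without day 1 replicate 2 to 10131 without day 7 replicate 3. Replicate numbers did not pair the samples: deviations of same-numbered libraries correlated at -0.0326, -0.0142 and -0.118. Without a count filter 10058 of 30563 genes were called. Scaling by library totals moved the median of all genes to 0.09 and the share of calls that were higher from 51% to 55.5%.

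Genes that changed sign with a call in either setting were Rpl22 (effective-length offsets, -0.29; log2 TPM, -0.30), Myl7 without day 1 replicate 3 (0.90), and Postn (-1.81) and Ltbp2 (-2.10) without day 7 replicate 3. List medians that crossed 0 included those of adipocyte genes (limma-voom, -0.0364, minimum count 30, -0.0450, ISO day 1 and day 7 alone, -0.0532, log2 TPM, -0.25, without day 7 replicate 2, -0.39) and of atrial genes (no count filter, 1.42, minimum count 30, 1.42, replicate block, 0.0851, without day 1 replicate 3, 1.80), from 0.59 and -1.11. Activated fibroblast genes went to 0.0728 without day 7 replicate 1 and to 0.00649 without replicate 4, and general macrophage and mitosis genes to -0.10 and -0.0475 without replicate 3. Over left-out libraries the range was -1.40 to 0.0728 for activated fibroblast, -0.10 to 0.33 for general macrophage, -0.0475 to 1.11 for mitosis, -0.39 to 1.0 for adipocyte and -1.65 to 1.80 for atrial genes, and -4.38 to 0.90 for Myl7, -1.81 to 0.36 for Postn and -2.10 to 0.36 for Ltbp2. The cause was not tested. Over 350 genes and all alternatives, 151 values lost and 39 gained a call, and 6411 kept their side of the threshold. The 6411 may include changes of sign where neither setting gave a call. For the panel's difference between arms, 12 values lost a call, all of H2-Ab1, and 2 gained one.

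With 3 and 4 hearts a group 1 heart can decide a fibroblast, collagen or mitosis result.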

Other observations

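The 10 genes named for their spread had the widest spread among the 4 day 7 hearts, given here as values. Day 7 replicate 3 was the high library for most of them. Ltbp2, a matrix protein that binds fibrillin, was at 11.8, 13.5 and 12.8 CPM on day 1 and at 2.54, 3.09, 42.2 and 3.25 CPM on day 7. Thbs4, a thrombospondin of tendon and stressed heart, was at 11.8, 14.4 and 16.3 CPM and then at 3.43, 3.23, 35.3 and 4.70 CPM. Tnc, the matrix protein tenascin C, was at 37.0, 36.9 and 24.4 CPM and then at 0.565, 1.90, 19.1 and 1.27 CPM, and Mfap4, a microfibril protein, was at 5.43, 4.66 and 6.96 CPM and then at 7.85, 13.1, 57 and 14.1 CPM. For Ltbp2 and Thbs4 replicate 3 was above every day 1 heart and the other 3 were below, while Tnc in replicate 3 stayed below the day 1 hearts. Cilp, Col3a1 and Acta1 of this group are described above.

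Hbb-bt, a haemoglobin gene, was lowest in the same heart, at 34.6, 30.5, 5.15 and 48.4 CPM over the 4 replicates. Cyp26b1, which breaks down retinoic acid, varied without that heart standing out, from 0.604, 2.14 and 1.92 CPM on day 1 to 11.2, 24.2, 9.95 and 3.21 CPM on day 7, and untreated hearts ranged from 2.47 to 12.2 CPM. Zc3h11a, a zinc finger gene, was at 29.8, 19.9, 16.3 and 3.58 CPM on day 7 and at 19.9, 15.5 and 32.6 CPM on day 1, with replicate 4 the low library.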
